A study of Mus musculus with 16 samples.

Results

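The mesangial, smooth muscle and stromal list holds 34 mouse genes that mark the supporting cells of the glomerulus and of its small vessels rather than the podocyte. Its members were chosen as a named list of symbols, and each was measured by the array probes whose transcript accession maps to that symbol in RefSeq. Every member had a probe. A probe was kept if at least 1 group had it well above background on each of its 4 arrays, and 29 of the 34 members passed, among 14565 genes tested in all. The 5 members that did not pass were Postn, Tbx18, Lmod1, Lum and Aspn, so the members that passed are not all members, and a member could pass through glomerular RNA alone.

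Polysome RNA of mouse glomeruli was measured on 16 single-colour arrays, 4 in each of 4 groups, all of the C57BL/6N background. The first group held podocyte RNA of Nphs1-RiboTag-NEP25 mice 4 days after LMB2, the second the same 7 days after LMB2, the third podocyte RNA of normal Nphs1-RiboTag mice, and the fourth glomerular RNA of normal Nphs1-RiboTag mice. RiboTag puts an HA epitope on the ribosomal protein Rpl22 wherever Cre recombinase acts, and Cre was driven here by Nphs1, the gene of nephrin, so that precipitation with HA antibody was aimed at podocyte ribosomes. Glomerular RNA was taken from the polysome fraction without precipitation. In NEP25 mice the podocytes bear human CD25, the target of the immunotoxin LMB2, which was given as a single tail vein injection (0.625 ng per g body weight). The normal mice are described with the tag alone, so NEP25 and LMB2 cannot be told apart in the comparisons of injured with normal podocytes. The labels do not say that each array is a separate animal, and p-values therefore measure the spread between these samples only. Ages are not given.

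Mesangial cells are the contractile pericyte-like cells between the glomerular capillaries, and they share much of their expression with the smooth muscle of the arterioles and with other mural cells. Platelet-derived growth factor signalling through Pdgfrb recruits them during development. Many contractile genes of smooth muscle are targets of serum response factor, which binds a DNA element called the CArG box and works with the cofactors myocardin and MRTF.

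Levels are log2 processed intensities from which the 75th percentile of the same array was subtracted, so 0 is the 75th percentile of the probes on that array. Differences are differences of group means on that scale with limma's standard error (n = 4 arrays a group), and a gene was called when its Benjamini-Hochberg adjusted p over all 14565 genes was under 0.05. The share of spots well above background ran from 49.3% to 57.5% over the arrays. The file headers place the 8 normal arrays on 1 slide with 1 scan and the 8 LMB2 arrays on another. Slide, scan and injury can therefore not be told apart in the comparisons of injured with normal RNA, whereas normal podocyte against glomerular RNA and day 7 against day 4 each lie within 1 slide. On the LMB2 slide, day 7 arrays lie in row 1 and day 4 arrays in row 2, so row and time cannot be told apart. On the other, podocyte arrays lie in columns 1 and 3 and glomerular arrays in columns 2 and 4. Replicate 3 was the highest of the 4 normal podocyte arrays for 22 of the 29 tested members and the highest of the 4 glomerular arrays for 18, with 15 members in both counts. These counts were not taken over all genes, so they do not show a trait of the members.

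In uninjured mice nearly the whole list was lower in podocyte RNA than in glomerular RNA. Of the 29 members tested, 28 were called lower (96.6%) and 0 higher, where 27.6% of all genes were called lower and 51.6% higher. The median difference of the members was -3.72, against 0.38 over all genes tested. Rgs4, Thy1, Mef2c, Olfml3 and Eln passed the filter through glomerular RNA alone, so the filter fixed their direction, and of the other 24 members 23 were called lower. Smtn was the 1 member not called (-0.27, adjusted p = 0.07). Thy1 had the lowest value, -4.97, but its probe was well above background on only 1 of 4 normal podocyte arrays, and the difference was -2.27 after normexp background correction. Same-numbered arrays of these 2 groups deviated together, and they also lie side by side on the slide. Shared samples and slide position can therefore not be told apart. With the number as a block Smtn was called as well, with the same difference and adjusted p = 0.04. Podocyte RNA was precipitated and glomerular RNA was not, and the part of RNA carried over from other cells was not tested. In bulk RNA, fewer cells of a type and less RNA per cell cannot be told apart. Tbx18 and Lum were well above background on 0 of 4 glomerular arrays and Postn on 2, and Smtn was close to even between both RNAs.

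The members nonetheless had measurable levels in podocyte RNA. 23 of the 34 were well above background on all 16 arrays, among them Pdgfrb, Itga8, Acta2 and Tagln. The same share over all genes is not given. Each of 10 endothelial and 10 proximal tubule markers was also well above background on at least 1 array of every group. At that looser measure, detection in podocyte RNA was not particular to these members. It is not the 16-array measure used for the members, so the counts cannot be compared. Mef2c, a MADS-box transcription factor, was above background on 0 normal podocyte arrays and 4 glomerular arrays, and was at least 7.39-fold lower in normal podocyte RNA (adjusted p = 3.12e-06), a direction that its entry through glomerular RNA alone fixed. After normexp correction its difference was -0.99.

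After LMB2 the list split. At day 4 only 2 members had risen and 6 had fallen relative to normal podocytes, and at day 7 10 had risen and 1 had fallen. At day 4 the 2 rises were 6.9% of the members, against 12.1% of all genes called higher, and the 6 falls were 20.7%, against 21.7% of all genes called lower, so both shares lay near or under those of all genes. At day 7 the 10 rises were 34.5% of the members, against 22% of all genes, and the 1 fall was 3.4%, against 36.4% of all genes. The median member difference was -0.40 at day 4 and 0.29 at day 7, against -0.14 over all genes at each time. The split depended on the scaling: with each array's median set to 0, which moved the median of all genes to -0.39 at day 4 and -0.47 at day 7, 1 member was higher and 13 lower at day 4, and 8 were higher and 7 lower at day 7. After normexp background correction there were 3 higher and 3 lower members at day 4 and 11 and 3 at day 7, normexp with quantile normalization gave 2 and 3 at day 4, and quantile normalization alone gave 9 and 3 at day 7. 13 members were called at neither time, a count not taken over all genes.

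**Figure D1:**
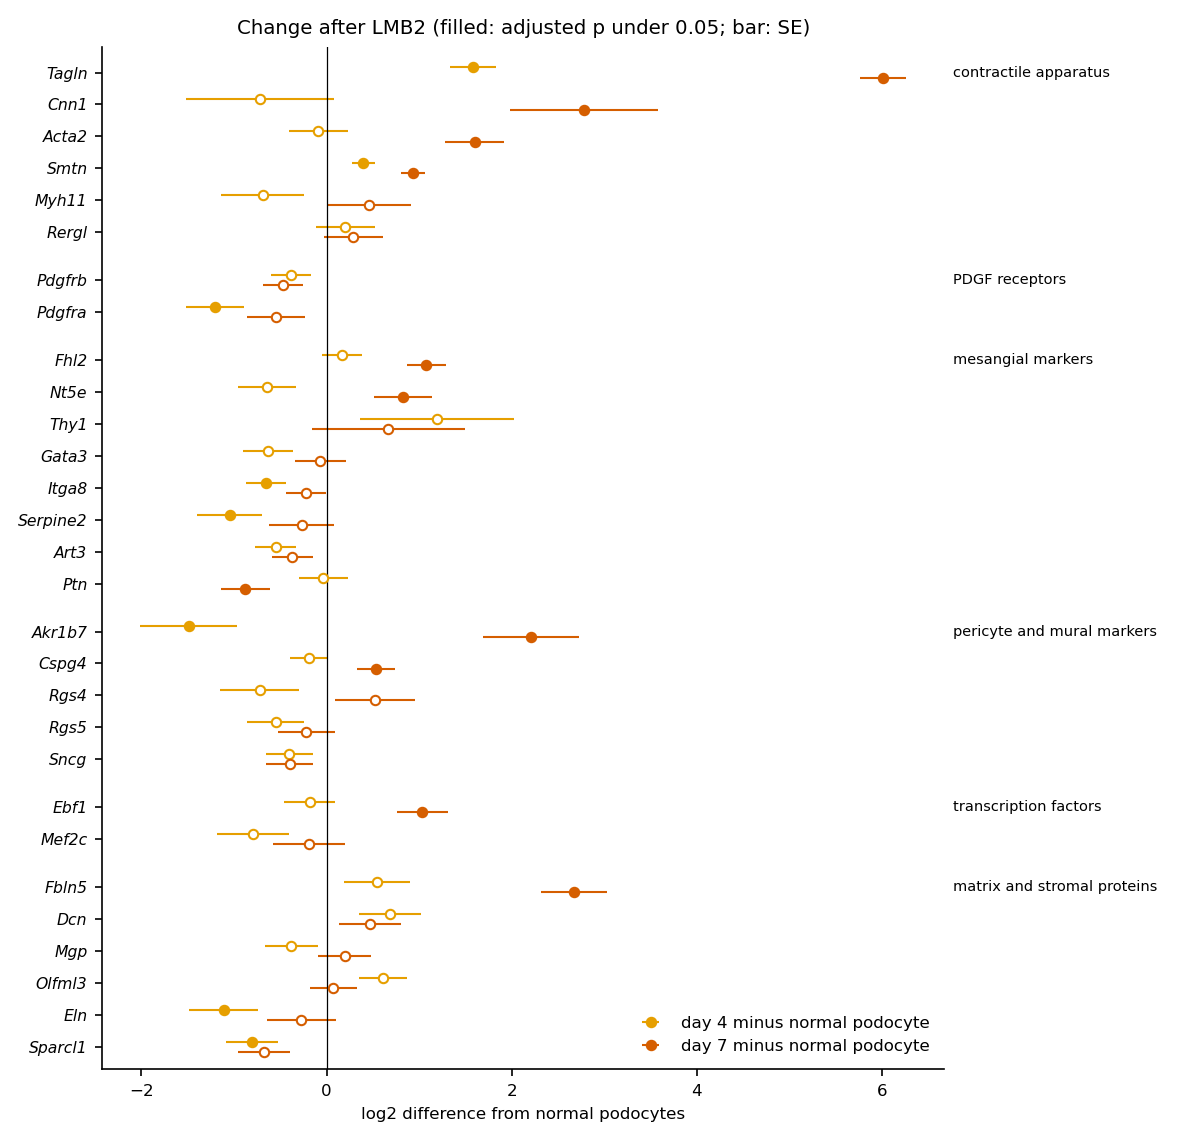
Log2 difference (x axis) of day 4 and day 7 podocytes from normal podocytes for each tested member, grouped by role; filled points passed an adjusted p of 0.05 and bars are standard errors. Tagln stands apart at 6.01 at day 7, most PDGF receptor and mesangial points lie at or below 0, and contractile points spread to the right at day 7.

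The largest rise, that of Tagln, lay in the contractile apparatus. Of its 6 tested members, 2 were called higher at day 4 (Tagln and Smtn) and 4 at day 7 (Tagln, Cnn1, Acta2 and Smtn), with 0 called lower at either time. These were 33.3% and 66.7% of the 6, against 12.1% and 22% of all genes called higher. The median difference of the 6 was 0.06 at day 4 and 1.27 at day 7.

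Tagln encodes transgelin, an actin-binding protein of smooth muscle. Its level was 5.50, 5.40, 5.44 and 6.31 on the day 4 arrays and 10.16, 10.27, 10.08 and 9.85 on the day 7 arrays. Normal podocyte arrays stood at 4.04, 3.96, 4.38 and 3.92, and glomerular arrays at 4.87, 4.71, 5.78 and 4.60. All day 7 arrays were above all others by more than 3 log2 units, and all day 4 arrays were above all normal podocyte arrays. Tagln was 64.6-fold higher at day 7 (6.01 ± 0.25, adjusted p = 3.43e-10) and 3.00-fold higher at day 4 (1.59 ± 0.25, adjusted p = 0.000235) than in normal podocytes. That day 7 difference ranked 73 of 14565 genes from the top.

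Acta2, smooth muscle alpha actin, stood at 0.97, 0.76, 0.99 and 1.76 at day 4 and at 2.98, 3.21, 2.16 and 2.87 at day 7. Normal podocyte arrays held 0.96, 1.16, 1.87 and 0.84, and glomerular arrays 4.62, 4.32, 5.54 and 4.31. Day 7 arrays were all above the normal podocyte arrays and all below the glomerular arrays, whereas day 4 and normal podocyte arrays overlapped. The difference was 1.60 ± 0.32 at day 7 (3.03-fold, adjusted p = 0.00063) and -0.09 ± 0.32 at day 4 (adjusted p = 0.862).

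Cnn1 encodes calponin, which binds actin and restrains myosin in smooth muscle. Its arrays read -6.12, -5.88, -4.11 and -3.88 at day 4 and -2.71, -1.65, -0.57 and -1.06 at day 7. They read -3.91, -4.02, -2.67 and -6.51 in normal podocytes and 0.29, -0.67, 1.28 and -1.21 in glomerular RNA. The probe was well above background on 1 day 4 array, 4 day 7 arrays and 3 normal podocyte arrays, and the lowest day 7 array lay just below the highest normal one. The day 7 difference was 2.78 ± 0.80 (adjusted p = 0.00794), and it was 1.10 after normexp background correction, still called (adjusted p = 0.00975). The day 4 difference of -0.72 ± 0.80 was not called (adjusted p = 0.523).

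Smtn, smoothelin, an actin-associated protein of contractile smooth muscle, was called at both times, by 0.40 ± 0.13 at day 4 (adjusted p = 0.0273) and by 0.94 ± 0.13 at day 7 (adjusted p = 2.49e-05). A second probe of Smtn gave 0.09 ± 0.14 at day 4 and 0.63 ± 0.14 at day 7. The day 4 call was lost with each array's median at 0, with the mean of both probes, with only the 8 arrays compared and with the replicate block. It was also lost without replicate 1 or 2 of the normal podocytes or replicate 2, 3 or 4 of day 4 (0.28 to 0.40 across these left-out arrays).

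**Figure D2:**
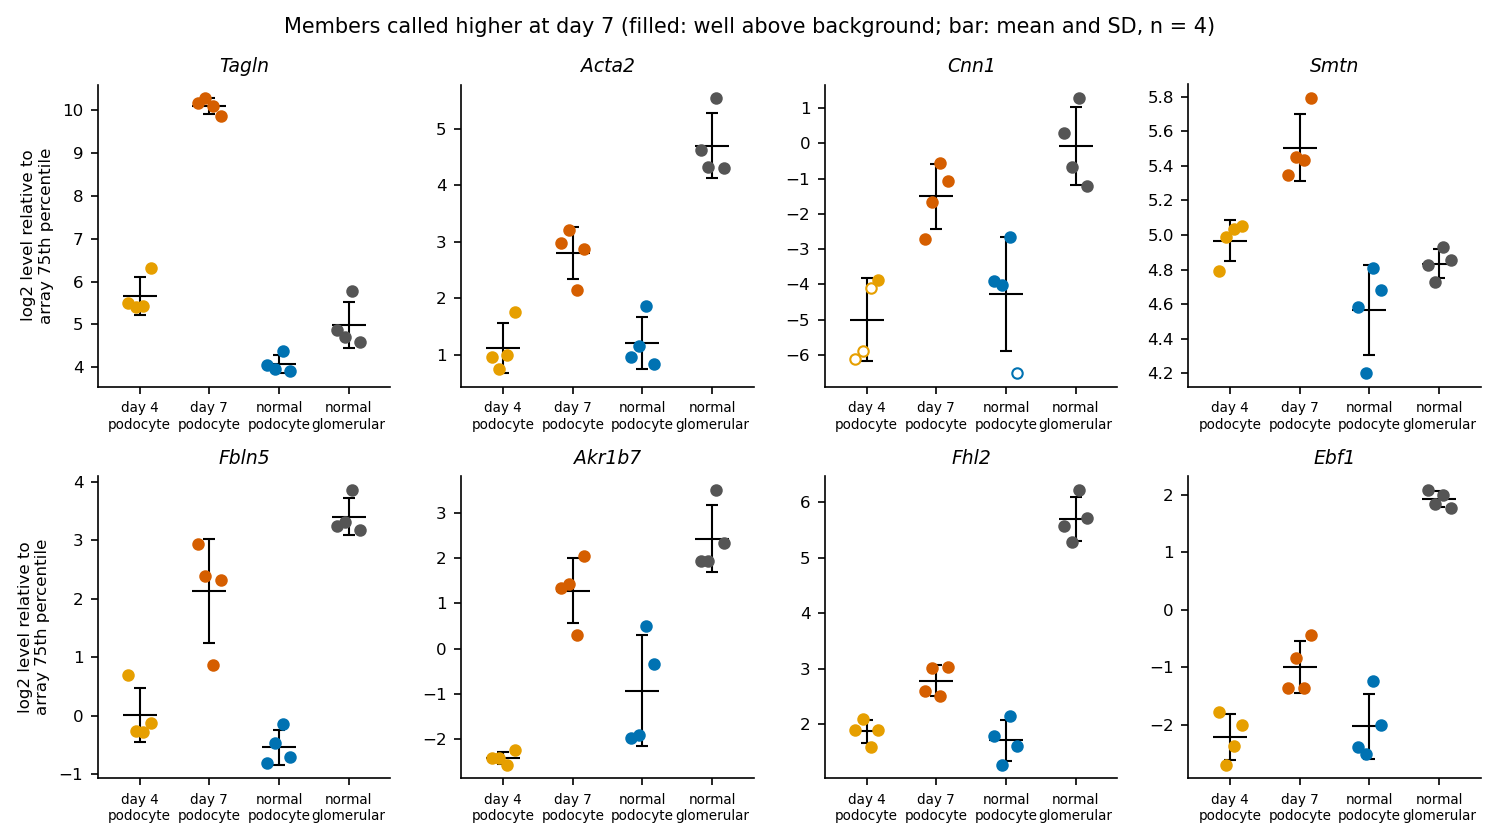
Log2 level relative to the array's 75th percentile (y axis) of 8 members called higher at day 7, one point per array, by group, with mean and SD (n = 4); open points were not well above background. Day 7 Tagln and Smtn arrays lie above the glomerular arrays, while day 7 Acta2, Fbln5, Fhl2 and Ebf1 arrays lie below them.

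Not every contractile gene rose. Myh11, the smooth muscle myosin heavy chain, stood at -2.09, -2.08, -2.13 and -1.23 at day 4 and at -1.41, -1.11, -0.39 and -0.02 at day 7. Normal podocyte arrays held -2.12, -1.78, 0.10 and -0.97, and glomerular arrays 0.59, 0.56, 1.65 and 0.36. Normal podocyte arrays spanned the whole day 7 range, and the differences of -0.69 ± 0.45 at day 4 and 0.46 ± 0.45 at day 7 were not called (adjusted p = 0.259 and 0.404). Rergl, a Ras-family member listed as a vascular smooth muscle marker, differed by 0.20 ± 0.32 at day 4 and 0.29 ± 0.32 at day 7 (adjusted p = 0.656 and 0.456). Lmod1, leiomodin, which nucleates actin filaments in smooth muscle, was well above background on 1 day 4, 0 day 7, 0 normal podocyte and 3 glomerular arrays and was not tested.

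Promoter sequence of members that rose was set beside that of a member that was not called, because the CArG box is the element through which serum response factor acts on contractile genes. The box was searched as CC, then 6 bases that are each A or T, then GG, which reads the same on both strands. RefSeq (GRCm38.p6) gave 33 promoters of 300 bases (250 before the start and 50 after it) for 25 of the 34 members. Pdgfrb, Myh11, Tagln, Thy1, Lum, Dcn, Sparcl1, Eln and Mgp had no entry. A full box was present in 3 of the 33 (9.09%), against 535 of all 32851 promoters (1.63%). A box with at most 1 changed base was present in 24.2% of the members' promoters and in 21.1% of all promoters. The 3 full boxes lay in both promoters of Fhl2, which rose at day 7, and in that of Rergl, which was not called, while the promoter of Acta2, which rose, held 2 matches with 1 changed base, 84 and 34 bases before the start. Among the other members that rose at day 7, the promoters of Cnn1, Smtn, Fbln5, Ebf1 and Nt5e held no match with at most 1 changed base, Akr1b7 held 1 and Cspg4 2 such matches, and Tagln had no entry. Capitals mark the full boxes, and in Acta2 the matches with 1 changed base. All 4 windows are on the minus strand and are written from 5′ to 3′, Acta2 at chr19:34255324-34255623, the Fhl2 promoters at chr1:43196712-43197011 and chr1:43163912-43164211, and Rergl at chr6:139501860-139502159. The match is a description of letters, not of binding.
Acta2: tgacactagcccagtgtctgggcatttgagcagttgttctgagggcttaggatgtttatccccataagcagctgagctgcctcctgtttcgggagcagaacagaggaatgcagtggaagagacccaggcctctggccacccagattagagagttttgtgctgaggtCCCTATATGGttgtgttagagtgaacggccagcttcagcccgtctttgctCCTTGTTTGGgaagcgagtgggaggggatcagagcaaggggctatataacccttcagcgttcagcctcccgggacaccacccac
Fhl2, first promoter: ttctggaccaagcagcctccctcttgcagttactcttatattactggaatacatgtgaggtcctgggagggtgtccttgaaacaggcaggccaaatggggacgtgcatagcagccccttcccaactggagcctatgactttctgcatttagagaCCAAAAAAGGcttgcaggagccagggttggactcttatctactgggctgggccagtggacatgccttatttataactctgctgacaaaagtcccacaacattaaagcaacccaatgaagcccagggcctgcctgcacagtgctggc
Fhl2, second promoter: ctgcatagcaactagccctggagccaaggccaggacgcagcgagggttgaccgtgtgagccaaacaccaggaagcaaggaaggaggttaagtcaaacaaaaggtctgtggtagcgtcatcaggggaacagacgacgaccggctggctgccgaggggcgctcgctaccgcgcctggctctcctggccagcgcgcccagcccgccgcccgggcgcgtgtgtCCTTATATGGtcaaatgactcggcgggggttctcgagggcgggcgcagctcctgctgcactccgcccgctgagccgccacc
Rergl: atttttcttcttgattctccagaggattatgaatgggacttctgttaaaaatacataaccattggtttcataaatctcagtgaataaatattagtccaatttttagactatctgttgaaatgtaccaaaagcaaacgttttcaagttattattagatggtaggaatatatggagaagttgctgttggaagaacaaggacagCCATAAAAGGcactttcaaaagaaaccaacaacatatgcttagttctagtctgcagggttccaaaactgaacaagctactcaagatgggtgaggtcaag

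The PDGF receptors did not rise. Pdgfrb, the receptor that mesangial cells depend on, stood at 2.29, 2.61, 2.01 and 1.69 at day 4 and at 2.22, 1.74, 2.13 and 2.16 at day 7. Normal podocyte arrays held 2.44, 2.42, 3.01 and 2.26, and glomerular arrays 3.73, 3.93, 4.17 and 3.38. All 4 day 7 arrays lay below all 4 normal podocyte arrays, yet the difference of -0.47 ± 0.22 was not called (adjusted p = 0.0759), nor was that of -0.38 ± 0.22 at day 4 (adjusted p = 0.193). With each array's median at 0, Pdgfrb was called lower at both times (-0.63 at day 4 and -0.80 at day 7), and after normexp correction at day 7 (-0.51).

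Pdgfra, the receptor of fibroblast-like stromal cells, fell at day 4. Its arrays read -2.29, -3.39, -2.94 and -3.18 at day 4, -1.90, -2.82, -2.15 and -2.27 at day 7, and -2.52, -2.17, -1.02 and -1.27 in normal podocytes, against 1.56, 1.56, 1.69 and 1.78 in glomerular RNA. 1 day 4 array stood within the normal range, and the difference was -1.20 ± 0.31 (adjusted p = 0.00894). The day 4 difference was -0.45 after normexp correction, still called, and the call was lost with the replicate number as a block (adjusted p = 0.0962). At day 7 it was -0.54 ± 0.31 (adjusted p = 0.152), and day 7 was not called against day 4 (0.66 ± 0.31, adjusted p = 0.121). Pdgfra was called lower at day 7 under quantile normalization (-0.74), with each array's median at 0 (-0.87), after normexp with quantile normalization (-0.40) and without replicate 1 of the normal podocytes (-0.80). Against day 4, day 7 was called higher with the replicate number as a block and without replicate 1 of day 4 (0.88).

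**Figure D3:**
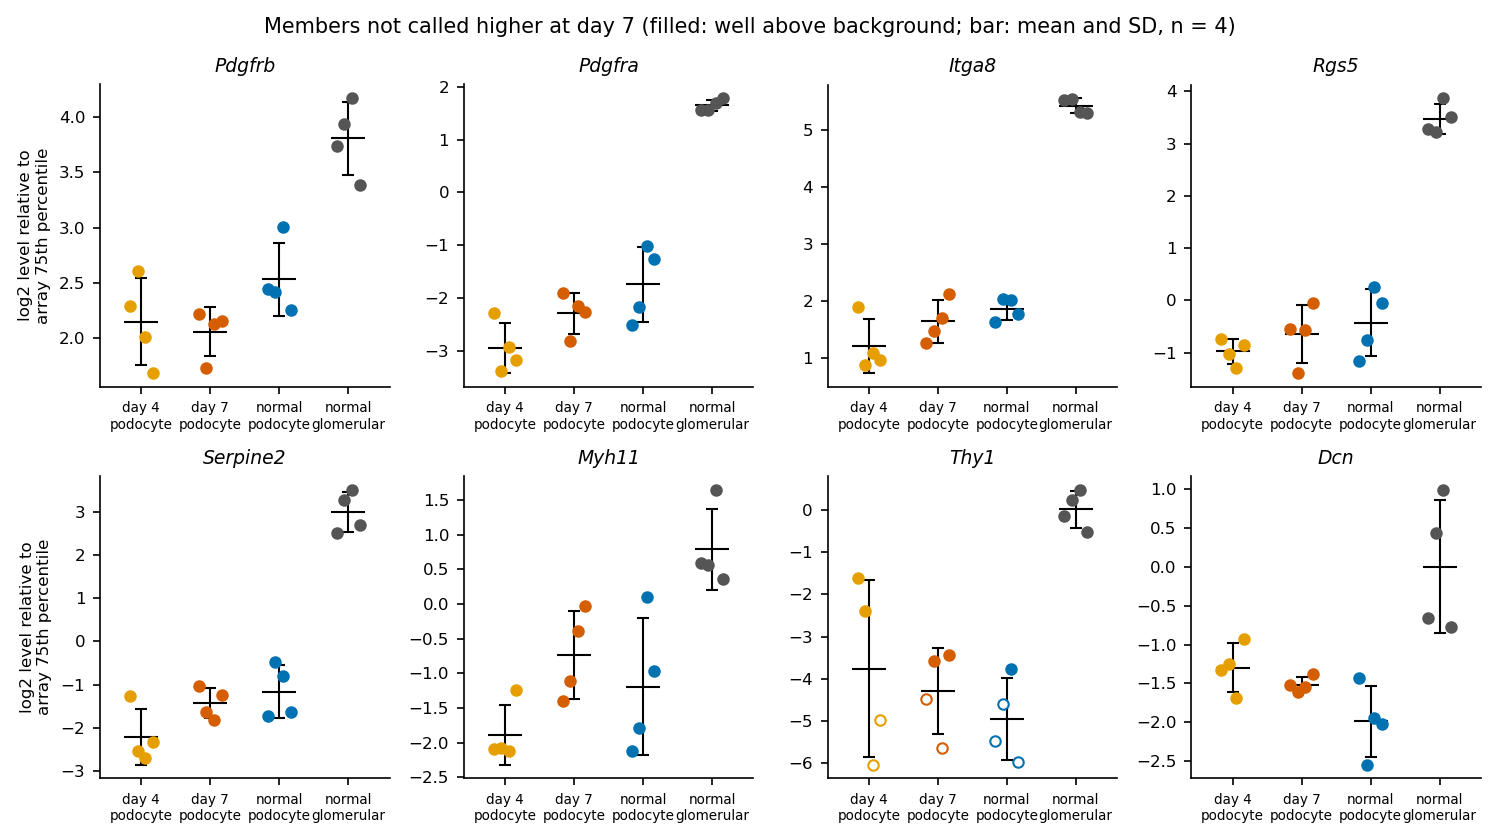
Log2 level relative to the array's 75th percentile (y axis) of 8 members not called higher at day 7, one point per array, by group, with mean and SD (n = 4); open points were not well above background. The 3 podocyte groups overlap for most of these members and all lie below glomerular RNA.

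Among the mesangial markers, 2 of 8 were called higher at day 7 (Fhl2 and Nt5e), 1 lower (Ptn), and 2 were called lower at day 4 (Itga8 and Serpine2). The 25% higher at day 7 and the 25% lower at day 4 lay near the 22% and 21.7% of all genes. Their median difference was -0.59 at day 4 and -0.14 at day 7, and at day 7 it was the same to 2 decimals as that of all genes. Fhl2, a LIM-domain cofactor that binds serum response factor, stood at 1.89, 2.09, 1.59 and 1.90 at day 4 and at 2.59, 3.01, 2.50 and 3.04 at day 7. Normal podocyte arrays held 1.79, 1.27, 2.15 and 1.61, and glomerular arrays 5.58, 5.28, 6.23 and 5.72. All day 7 arrays exceeded all normal podocyte arrays, and the difference was 1.08 ± 0.22 (adjusted p = 0.00061), against 0.17 ± 0.22 at day 4 (adjusted p = 0.594). Nt5e, the ecto-nucleotidase CD73 that forms adenosine, was called higher at day 7 by 0.83 ± 0.31 (adjusted p = 0.0345). This call was lost with each array's median at 0 (0.50) and with the replicate block. It was also lost without replicate 1, 2 or 4 of either the normal podocytes or day 7, with differences of 0.64 to 0.85.

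Itga8, the integrin alpha chain of mesangial cells, held 1.90, 0.88, 1.08 and 0.96 at day 4 and 1.26, 1.48, 1.70 and 2.13 at day 7. It held 1.64, 2.04, 2.01 and 1.77 in normal podocytes and 5.52, 5.54, 5.32 and 5.29 in glomerular RNA. 3 of 4 day 4 arrays lay below all normal podocyte arrays, and the fall of 0.66 on the log2 scale was called (-0.66 ± 0.22, adjusted p = 0.03), while day 7 was not (-0.22 ± 0.22, adjusted p = 0.397). The day 4 call was lost without replicate 2 or 3 of the normal podocytes or replicate 2, 3 or 4 of day 4, with differences of -0.615 to -0.548. It was also lost under quantile normalization (-0.55), after normexp with quantile normalization (-0.49), with only the 8 arrays compared and with the replicate block.

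Serpine2, a serine protease inhibitor, held -1.27, -2.54, -2.70 and -2.32 at day 4 and -1.04, -1.62, -1.82 and -1.24 at day 7. It held -1.73, -0.48, -0.80 and -1.64 in normal podocytes and 2.52, 3.27, 3.51 and 2.70 in glomerular RNA. It was called lower at day 4 (-1.05 ± 0.35, adjusted p = 0.0327) but not at day 7 (-0.27 ± 0.35, adjusted p = 0.536). The day 4 call was lost without replicate 2 or 3 of the normal podocytes or replicate 2, 3 or 4 of day 4 (-1.01 to -0.82). It was also lost after normexp correction (-0.51), with only the 8 arrays compared and with the replicate block.

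Thy1, a surface glycoprotein that marks mesangial cells in rats, read -1.62, -2.39, -6.03 and -4.98 at day 4 and -4.48, -3.57, -5.64 and -3.44 at day 7. It read -5.48, -4.58, -3.77 and -5.97 in normal podocytes and -0.14, 0.23, 0.48 and -0.51 in glomerular RNA. The probe was above background on 2 day 4, 2 day 7 and 1 normal podocyte arrays, and neither difference was called (1.20 ± 0.83 and 0.67 ± 0.83, adjusted p = 0.29 and 0.516). Gata3, a transcription factor that marks mesangial cells, and Art3, an ADP-ribosyltransferase family member, were called at neither time, with differences of -0.64 and -0.55 at day 4 and of -0.07 and -0.37 at day 7. Ptn, the heparin-binding growth factor pleiotrophin, was the only member lower at day 7 (-0.88 ± 0.27, adjusted p = 0.0118), and its second probe gave -1.26 ± 0.26. The Ptn call was lost with only the 8 arrays compared (adjusted p = 0.0503) and with the replicate block (adjusted p = 0.0974).

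The pericyte and mural markers moved in opposite directions at the 2 times in 1 case. Akr1b7, an aldo-keto reductase that marks renin-lineage cells of the mouse kidney, stood at -2.42, -2.43, -2.57 and -2.25 at day 4 and at 1.33, 1.43, 0.30 and 2.06 at day 7. Normal podocyte arrays held -1.98, -1.90, 0.50 and -0.34, and glomerular arrays 1.94, 1.93, 3.51 and 2.33. Day 4 arrays lay below all normal podocyte arrays, and 3 of 4 day 7 arrays lay above them. It was called lower at day 4 (-1.49 ± 0.52, adjusted p = 0.0406) and higher at day 7 (2.21 ± 0.52, 4.62-fold, adjusted p = 0.00226). The day 4 call was lost when any 1 array other than normal podocyte replicates 1 and 2 was left out, to -1.01 without normal podocyte replicate 3. It was also lost after both normexp settings (-0.73 and -0.87), without the filter, with only the 8 arrays compared and with the replicate block. The day 7 call was kept under the alternatives run, from 1.70 to 2.69.

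Cspg4, the NG2 proteoglycan of pericytes, was called higher at day 7 by 0.54 ± 0.20 (adjusted p = 0.034). This call was lost under quantile normalization, with each array's median at 0 (0.21), with only the 8 arrays compared and with the replicate block. It was also lost without replicate 1, 2 or 4 of the normal podocytes or replicate 2 or 4 of day 7 (0.43 to 0.50). Rgs5, a regulator of G-protein signalling typical of pericytes, held -0.74, -1.02, -1.29 and -0.86 at day 4 and -0.55, -1.39, -0.58 and -0.06 at day 7. It held -1.16, -0.76, 0.26 and -0.05 in normal podocytes, a range that held 3 of 4 day 4 arrays, and 3.28, 3.22, 3.87 and 3.51 in glomerular RNA. Neither time was called (-0.55 ± 0.31 and -0.22 ± 0.31, adjusted p = 0.185 and 0.569). Rgs4, of the same family, and Sncg, gamma-synuclein, were called at neither time against normal podocytes.

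Of the transcription factors, Ebf1 rose. This early B-cell factor is also expressed in stromal and mesangial cells. Its arrays read -1.78, -2.69, -2.37 and -2.00 at day 4 and -1.36, -0.83, -1.35 and -0.43 at day 7. They read -2.38, -2.50, -1.23 and -2.01 in normal podocytes and 2.09, 1.84, 2.00 and 1.78 in glomerular RNA. Normal podocyte replicate 3 lay within the day 7 range and the other 3 below it, and the day 7 difference was 1.04 ± 0.28 (adjusted p = 0.00539). At day 4 it was -0.18 ± 0.28 (adjusted p = 0.653). Mef2c was above background on 1 day 7 array and on 0 arrays of day 4 or normal podocytes, so no fold is given, and Tbx18, a T-box factor, was above background on 0 of 16 arrays.

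Among the matrix and stromal proteins 1 of 6 tested members rose at day 7 (16.7%), against 22% of all genes, and 0 fell, against 36.4%. At day 4, 0 rose and 2 fell (33.3%, Eln and Sparcl1), against 12.1% of all genes called higher and 21.7% lower. Fbln5, fibulin 5, which organises elastic fibres, stood at 0.69, -0.26, -0.29 and -0.12 at day 4 and at 2.94, 2.39, 0.86 and 2.32 at day 7. Normal podocyte arrays held -0.82, -0.48, -0.15 and -0.72, and glomerular arrays 3.25, 3.32, 3.87 and 3.18. Every day 7 array exceeded every normal podocyte and day 4 array and lay below every glomerular array. The day 7 difference was 2.67 ± 0.36 (6.37-fold, adjusted p = 2.05e-05), against 0.55 ± 0.36 at day 4 (adjusted p = 0.261). A second Fbln5 probe, which did not pass the filter, gave 1.66 ± 0.83 at day 7 and 1.64 ± 0.83 at day 4.

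Eln, tropoelastin, the protein that such fibres are built from, read -6.09, -6.10, -5.69 and -5.86 at day 4 and -4.85, -4.91, -5.83 and -4.79 at day 7. It read -3.88, -4.19, -5.88 and -5.34 in normal podocytes and -1.95, -1.51, -2.05 and -2.34 in glomerular RNA. No LMB2 array was well above background and 2 of 4 normal podocyte arrays were, so the called difference at day 4 (-1.11 ± 0.37, adjusted p = 0.0332) rests on values that are only upper bounds. It was -0.01 after normexp correction (adjusted p = 0.925), and the call was lost without replicate 1 or 2 of the normal podocytes or replicate 1, 2 or 4 of day 4 (-1.14 to -0.80). The call was also lost after normexp with quantile normalization (-0.23), with only the 8 arrays compared and with the replicate block.

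Dcn, the collagen-binding proteoglycan decorin, held -1.33, -1.25, -1.68 and -0.93 at day 4 and -1.53, -1.61, -1.55 and -1.38 at day 7. It held -1.43, -2.54, -1.94 and -2.02 in normal podocytes and -0.66, 0.44, 0.99 and -0.77 in glomerular RNA. The podocyte groups overlapped through 1 normal array, and neither difference was called (0.69 ± 0.34 and 0.47 ± 0.34, adjusted p = 0.131 and 0.249). Sparcl1, a matricellular protein, fell at day 4 (-0.81 ± 0.28, adjusted p = 0.0379) and was just outside the threshold at day 7 (-0.68 ± 0.28, adjusted p = 0.0506). The day 4 call was lost without replicate 1 or 3 of the normal podocytes or replicate 1, 2 or 3 of day 4 (-0.82 to -0.67). It was also lost under quantile normalization (-0.72), without the filter and with the replicate block. Mgp, matrix Gla protein, an inhibitor of calcification, and Olfml3, a secreted olfactomedin-like protein, were called at neither time. A second Olfml3 probe, which did not pass the filter, gave -0.31 ± 0.37 at day 4, against 0.61 ± 0.26 for the one used. Lum, the keratan sulfate proteoglycan lumican, read -6.58, -6.61, -4.04 and -6.59 at day 4 and -6.58, -6.26, -6.33 and -6.72 at day 7. It read -7.24, -6.86, -4.72 and -6.47 in normal podocytes and -7.43, -7.09, -4.64 and -5.99 in glomerular RNA, and it was above background on 1 day 4 array and on no other array. Postn and Aspn, periostin and asporin, were above background on 0 arrays of day 4 and day 7.

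Day 7 was also set against day 4, within 1 slide but in different rows of it, and within mice of the same genotype and treatment. 11 of 29 members were called higher (37.9%) and 1 lower (3.4%), against 14% and 18.6% of all genes. The median member difference was 0.61, against -0.04 over all genes. Marker lists of other cells, described below, were compared in the same way. The median was 0.64 for 10 endothelial markers, of which 3 were called higher and 1 lower. For 10 proximal tubule markers it was 0.50, with 0 called. It was 1.62 for parietal epithelial, 0.06 for leukocyte and -0.65 for podocyte markers. All 10 members called higher at day 7 against normal podocytes were called higher against day 4 too. This comparison shares its day 7 arrays with the other, so the overlap is not independent, and the same overlap over all genes was not counted. The differences ran from 4.43 ± 0.25 for Tagln (adjusted p = 3.96e-08), 3.70 ± 0.52 for Akr1b7 (adjusted p = 0.00015) and 3.50 ± 0.80 for Cnn1 (adjusted p = 0.00442) to 0.54 ± 0.13 for Smtn (adjusted p = 0.00582). The remaining member called higher was Rgs4 (1.25 ± 0.43, adjusted p = 0.0377). It was above background on 3 day 7 and 2 day 4 arrays, its second probe gave 0.60 ± 0.49, and the call was lost without replicate 2 or 3 of day 4 or replicate 2, 3 or 4 of day 7 (0.86 to 1.31) and after normexp correction (0.30). The Rgs4 call was also lost with each array's median at 0, after normexp with quantile normalization, without the filter, with only the 8 arrays compared and with the replicate block. Ptn was the member called lower (-0.84 ± 0.27, adjusted p = 0.0268), a call lost without replicate 1 of day 7 (-0.55) and without replicate 1 or 4 of day 4.

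Levels at day 7 were then set against glomerular RNA of normal mice, to see how far the members that rose stood from the tissue they mark. 25 of 29 members were called lower than in glomerular RNA (86.2%) and 2 were higher (6.9%), against 29.2% and 43.5% of all genes, and the median was -3.17, against 0.20 over all genes. Without the 5 members that passed the filter through glomerular RNA alone, 20 of 24 were lower. Of the 10 members called higher at day 7 against normal podocytes, 6 were called lower than in glomerular RNA, from -3.47 ± 0.31 for Nt5e to -1.28 ± 0.36 for Fbln5. Cnn1 (-1.42 ± 0.80, adjusted p = 0.121) and Akr1b7 (-1.15 ± 0.52, adjusted p = 0.0613) were not called, which does not place them at the glomerular level. Akr1b7 was called lower than glomerular RNA under quantile and median scaling, both normexp settings and with only the 8 arrays compared (-1.28 to -1.06), and without replicate 4 of day 7 (-1.41). Cnn1 was called lower after both normexp settings (-0.95 and -1.03) and with the replicate number as a block. Tagln and Smtn were above glomerular RNA, Tagln by 5.10 ± 0.25 (34.3-fold, adjusted p = 5.01e-10) and Smtn by 0.67 ± 0.13 (adjusted p = 0.000303). Eln, above background on 0 day 7 arrays, was at least 5.22-fold lower than in glomerular RNA (adjusted p = 3.39e-06), again with the direction fixed by the filter, and its difference was -0.71 after normexp correction.

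**Figure D4:**
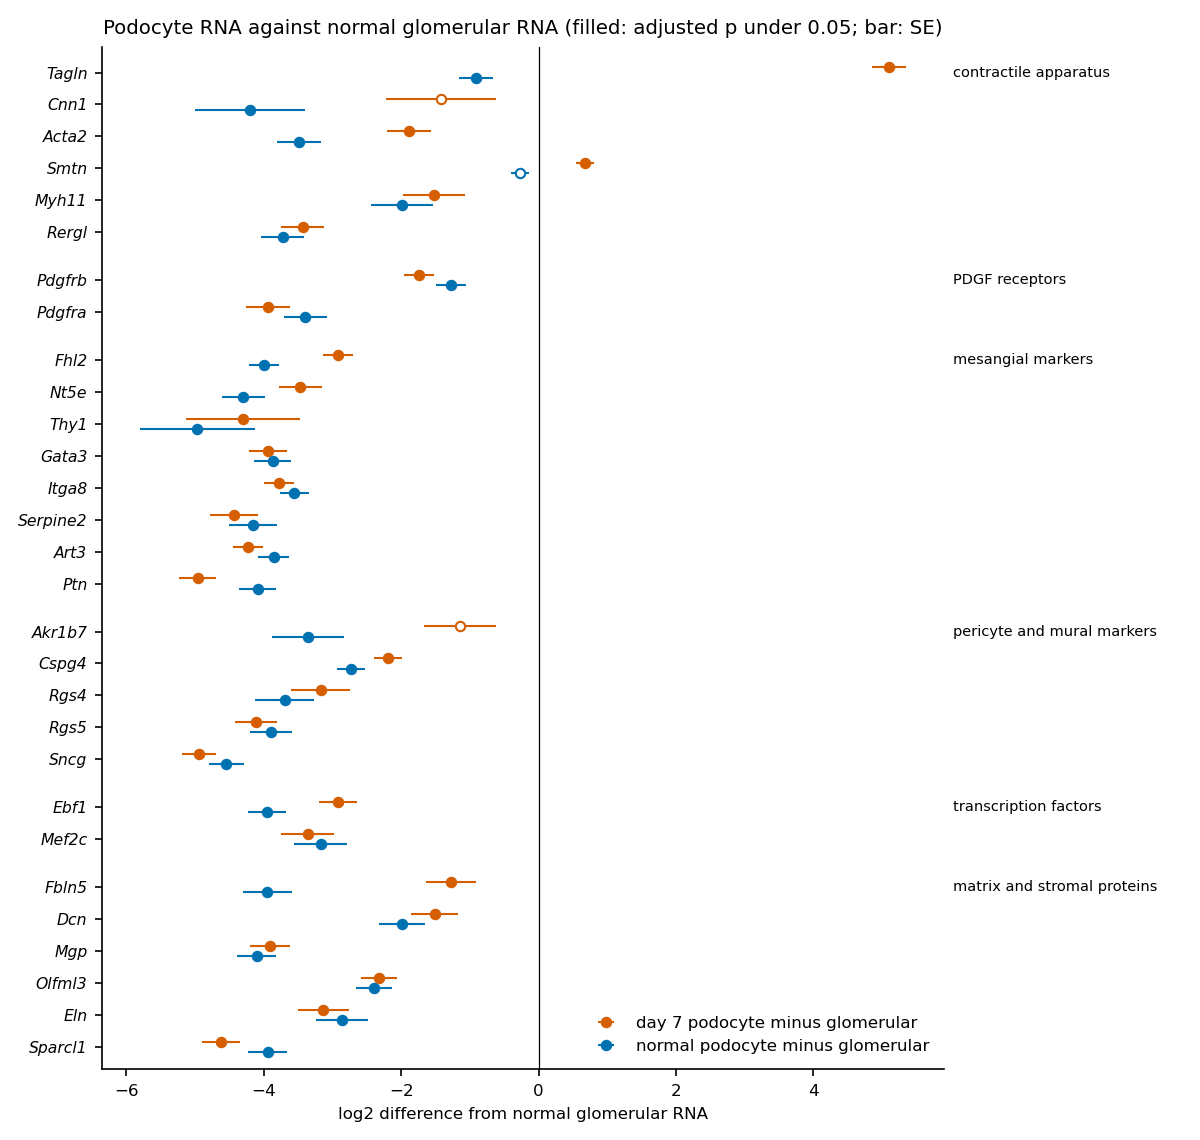
Log2 difference (x axis) of day 7 podocytes and of normal podocytes from normal glomerular RNA for each tested member, grouped by role; filled points passed an adjusted p of 0.05 and bars are standard errors. Tagln lies at 5.10 at day 7 and at -0.91 in normal podocytes, whereas mesangial markers stay between -4.97 and -2.92 in both.

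Other genes of the same pathways were counted from 3 further lists, to be read against the 12.1% higher and 21.7% lower of all genes at day 4 and the 22% and 36.4% at day 7. Of 24 tested contractile and serum response factor genes, 9 rose and 2 fell at day 4, while 18 rose and 1 fell at day 7, with a median of 0.12 at day 4 and 1.49 at day 7. The share that rose was 37.5% at day 4 and 75% at day 7. Of the 24, 4 were well above background on no normal podocyte array, 3 on no day 4 array and 2 on no day 7 array. Such genes could pass the filter only through a group where they were higher, and their differences rest on values near background. Which genes these were is not given, so the examples carry that limit. The genes called lower were Tpm1 and Mrtfa at day 4 and Mrtfa at day 7, named after their values were seen, and the probes of Tpm1 disagreed (-0.59 to 3.15 at day 4). The examples with the largest day 7 differences were Actg2, enteric smooth muscle actin (4.79 ± 0.33, adjusted p = 3.73e-08), Pdlim7, a PDZ and LIM protein of actin filaments (4.30 ± 0.19), Cav1, caveolin 1 (3.79 ± 0.21), and Csrp1, a LIM protein that works with serum response factor (3.14 ± 0.23). Of 22 tested mural and mesangial genes beyond the members, 0 rose and 6 fell at day 4, while 7 rose (31.8%) and 2 fell at day 7. The 6 at day 4 are 27.3% of the list. Those that rose included the muscle intermediate filament desmin, Des, which also stands in the contractile list (3.02 ± 0.16), the forkhead factor Foxs1 (2.66 ± 0.32), the ligand Pdgfa (1.57 ± 0.17, and -0.55 ± 0.17 at day 4, both called) and the collagen-binding integrin chain Itga1 (1.10 ± 0.14). Of 21 tested stromal matrix genes, 1 was higher and 0 lower at day 4, and 10 were higher (47.6%) and 2 lower at day 7. Of these 21, 2 were well above background on no day 4 array. Here the examples were Col1a1, a chain of type I collagen (3.03 ± 0.31), Fn1, fibronectin (2.23 ± 0.60), Tnc, tenascin C (2.10 ± 0.38), and Lox, which crosslinks collagen and elastin (2.05 ± 0.29).

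Markers of the other cells that a precipitate could hold were measured on the same arrays, and their counts are to be read against the same shares of all genes. The smooth muscle and mesangial lists summed below hold members only, so those sums repeat the members' own values. Endothelial markers, which like the mesangial ones are strong in glomerular RNA, had 1 of 10 higher and 2 lower at day 7, with a median of -0.06. At day 4 they had 0 higher and 3 lower, with a median of -0.63. Leukocyte markers had 2 of 10 higher and 1 lower at day 7, and 3 higher and 0 lower at day 4. Proximal tubule markers had 0 of 10 called at either time but varied strongly between arrays, with day 4 replicate 1 at 1.40, day 7 replicate 4 at 2.28 and normal podocyte replicate 4 at 1.07 above the mean of normal podocytes. Parietal epithelial markers had 7 of 7 higher at day 7 and 1 at day 4, and podocyte markers had 0 of 8 higher and 5 lower at day 7. The summed level of the smooth muscle markers, in units of the array's 75th percentile, was 75.9 to 117 at day 4 and 985 to 1290 at day 7, against 37.2 to 54.6 in normal podocytes and 88.2 to 156 in glomerular RNA. Tagln alone made up 93.4% to 95.8% of that sum at day 7, against 34.7% to 41.7% in normal podocytes. The other 6 smooth muscle markers summed to 30.7 to 37.7 at day 4 and 49.7 to 65.1 at day 7, against 21.7 to 33.8 in normal podocytes and 62.0 to 101 in glomerular RNA. A list of 10 mesangial markers, not the 8 counted further above, was summed as well. This list adds Pdgfrb, Cspg4, Rgs4, Rgs5 and Akr1b7 and lacks Ptn, Thy1 and Nt5e. Its sum was 11.7 to 16.3 at day 4 and 17.9 to 26.9 at day 7. In normal podocytes it was 15.4 to 23.1, and in glomerular RNA 156 to 201. The endothelial sum was 40.5 to 67.6 at day 4 and 55.3 to 88.4 at day 7, against 57.9 to 112 in normal podocytes and 924 to 1122 in glomerular RNA. No endothelial marker was below background on all arrays of a group. The part of other cells in the members' changes was not tested.

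**Figure D5:**
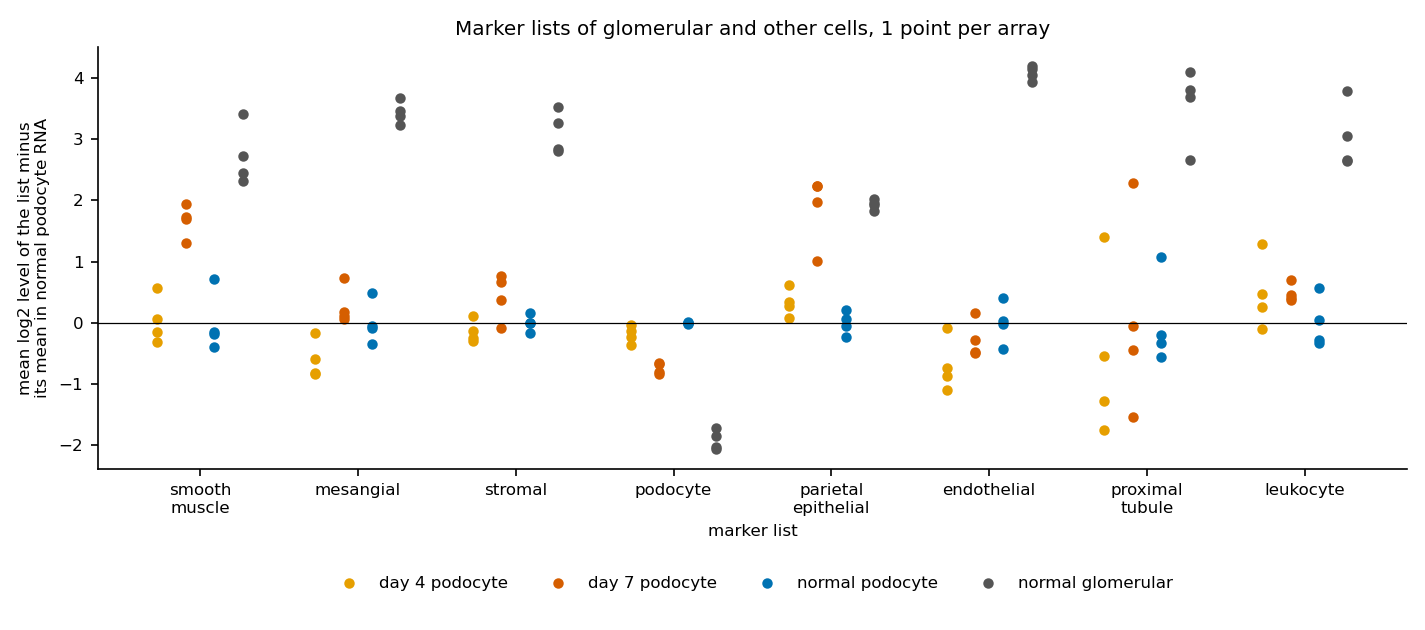
Mean log2 level of each marker list minus its mean in normal podocyte RNA (y axis), one point per array, for 8 lists. The smooth muscle, mesangial and stromal lists hold members only, and the mesangial list is that of 10 markers. Smooth muscle points of day 7 lie between 1.31 and 1.95, while endothelial points of day 7 lie between -0.50 and 0.16 and proximal tubule points spread within every podocyte group.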

How the data were processed

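Per the file headers, single-colour Agilent arrays were read with Feature Extraction 11.5.1.1, and the deposited scanner files hold a processed intensity for each spot, background-subtracted by that program and not normalized between arrays. The deposited value table gives 39430 probes on a log2 scale. For all 16 columns, 1 array differed from the column by a constant only, column medians ran from -3.17 to -2.51, and the origin of that constant is unknown. 6 columns, replicates 1 to 3 of both normal groups, matched another replicate of the same group, and the numbers used here are those of the scanner files.

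Control and outlier spots were left out, log2 processed intensities were averaged per probe (55681 probes) and each array's 75th percentile was subtracted. That percentile ran from 197 to 356 in intensity units, no spot was saturated, and the number of arrays limits the precision. Accessions named 26582 probes with 1 RefSeq symbol and none with several, and 29099 had no name. Of named probes, 19048 passed the filter on all arrays and 58 that passed it were missing on some array. The kept probe of highest mean stood for a gene. All 16 arrays entered 1 limma 3.58.1 fit (R 4.3.3, Python 3.11.15, group means, 12 residual degrees of freedom, lmFit and eBayes, Benjamini-Hochberg), tested on simulated data. "At least" folds set the brighter group's mean against, per dim array, the higher of the probe's value and the lowest well-above-background signal.

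Members and lists were chosen with earlier results of these data known. Array values are given for members called at either time with a log2 difference of at least 1, and for Pdgfrb, Pdgfra, Itga8, Acta2, Myh11, Tagln, Cnn1, Rgs5, Thy1, Dcn and Lum. Related lists give up to 4 examples by size. Tpm1, Mrtfa, Srf, Myocd and Ren1 were named outside that rule, after their values were seen. Deviations of same-numbered arrays correlated at 0.424 to 0.505 in all 4 pairs of normal podocyte and glomerular RNA. These arrays also lie side by side on the slide, so shared samples and slide position cannot be told apart. In other group pairs the correlations ran from -0.412 to 0.486. Alternatives were quantile or median scaling, normexp (offset 50), the mean of a gene's probes, no filter, the value table, the 8 arrays compared, the replicate block and leaving out each array.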

Additional observations from a re-analysis of the deposited data

Results flagged for a closer look

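Among 116 sets of 4 arrays (each tested member in each group), 7 had 1 array far from the other 3, where chance alone is expected to mark about 1 in 20 sets. At day 4, replicate 4 was high for Myh11 (-1.23) and for Tagln (6.31), and replicate 1 was high for Fbln5 (0.69). At day 7, replicate 1 was low for Ptn (-0.55) and replicate 3 was low for Eln (-5.83), where that probe was not above background. In normal podocyte RNA, replicate 3 was high for Cspg4 (-0.11), and in glomerular RNA replicate 4 was low for Rgs4 (-0.64).

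For 12 members the effect at day 7 differed from that at day 4, tested as a limma contrast of both times over the same normal arrays. Those arrays cancel, so this is the comparison of day 7 with day 4 and repeats its values. Of the members, 37.9% were higher and 3.4% lower in it, against 14% and 18.6% of all genes. The difference of the effects was 4.43 for Tagln, 3.70 for Akr1b7, 3.50 for Cnn1, 2.12 for Fbln5, 1.69 for Acta2, 1.48 for Nt5e, 1.25 for Rgs4, 1.22 for Ebf1, 0.91 for Fhl2, 0.73 for Cspg4, 0.54 for Smtn and -0.84 for Ptn.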

How the results depend on the processing

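No member changed direction past the threshold. The day 4 counts of 2 higher and 6 lower members became 1 and 13 with each array's median at 0, 3 lower after normexp with either scaling, 1 higher with the mean of probes, 1 and 2 with only the 8 arrays compared, and 0 lower with the replicate block. Without 1 array they were 1 to 2 higher and 1 to 7 lower. The 1 lower member at day 7 became 7 with the array median at 0, 3 under quantile normalization and under normexp with the 75th percentile, 2 under normexp with quantile normalization and with the deposited value table, and 0 with the 8 arrays or the replicate block. Leaving out 1 array gave 1 to 3 lower and 8 to 10 higher at day 7. For day 7 against day 4 the 1 lower member became 0 with the 8 arrays or the block, 0 to 1 without 1 array, and the higher ones were 10 to 15. Normal podocyte against glomerular counts were 0 higher and 28 to 29 lower without 1 array, and those of day 7 against glomerular RNA 2 higher and 25 to 26 lower. The 8 members with day 7 rises in all alternatives were Tagln, Acta2, Cnn1, Smtn, Fbln5, Akr1b7, Fhl2 and Ebf1. Between the normal groups the block changed no call but that of Smtn. Elsewhere same-numbered arrays did not deviate together in every pair. Slide as a block was not run, because each slide holds either normal or LMB2 arrays only. Probes near background (Cnn1, Thy1, Mef2c, Eln, Olfml3, Rgs4) limit what the signal can show.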

Other observations

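In the uninjured mice replicate 3 stood above the mean of the other 3 arrays in both podocyte and glomerular RNA for 6 of 6 contractile members, 4 of 5 pericyte and mural markers, 4 of 6 matrix and stromal members, 3 of 8 mesangial markers, both PDGF receptors and both tested transcription factors. The same share over all genes was not counted, so whether this is particular to the members was not tested. The deviation was 2.15 in normal podocyte and 1.81 in glomerular RNA for Cnn1, 1.91 and 1.44 for Akr1b7, 1.73 and 1.15 for Myh11, 0.88 and 1.12 for Acta2, and 0.89 and 0.87 for Rergl. The 3 mesangial markers above in both were Thy1 (1.57 and 0.62), Fhl2 (0.59 and 0.70) and Serpine2 (0.48 and 0.68), while Itga8 had 0.20 and -0.13 and Gata3 0.39 and -0.27. Leaving replicate 3 of the normal podocytes out gave a day 7 difference of 2.69 for Akr1b7.

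Ren1, renin, which juxtaglomerular cells of the same arteriolar lineage make, was measured in the mural list. It was not called against normal podocytes at day 4 (-0.71 ± 0.38, adjusted p = 0.17) or day 7 (0.84 ± 0.38, adjusted p = 0.0727) and was called higher at day 7 than at day 4 (1.55 ± 0.38, adjusted p = 0.00706). Akr1b7 had 3.70 ± 0.52 in that last comparison. Of the factors that act on the CArG box, Srf was called higher at day 7 (0.88 ± 0.12, adjusted p = 1.58e-05) and not at day 4 (-0.01 ± 0.12, adjusted p = 0.954). Its cofactor Myocd was called higher at day 7 (1.94 ± 0.46, adjusted p = 0.0022) and not at day 4 (-0.01 ± 0.46, adjusted p = 0.986), and the cofactor Mrtfa was called lower at both times (-0.28 ± 0.10 at day 4 and -0.27 ± 0.10 at day 7). These genes were named after their values were seen. Srf, Myocd and Mrtfa stand in the contractile list, of which 4 of 24 genes were well above background on no normal podocyte array.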
